A study of Mus musculus with 9 samples.

Results

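Circular RNAs (circRNAs) form when the end of an exon is joined back to the start of the same or an earlier exon, and each is read through the back-splice junction this leaves. The circRNAs of the mouse gene Ccdc141 were examined in C2C12 cells, an immortal mouse myoblast line derived from skeletal muscle. A further circRNA, called overhanging here, runs past the gene's 5′ end in the GENCODE annotation but not in that of RefSeq. The members were the 24 circRNAs that the deposited table assigns to Ccdc141 (ENSMUSG00000044033) and the circRNA at chr2:77074836-77173607 on the minus strand, which the table lists as intergenic. They made up 25 of the 37751 circRNAs in the table. They had been chosen with their rise from day 0 known. Their values and calls against day 0 are therefore a description, and a call kept in an alternative fit does not test the rise. Day 6 against day 3 was tested, and all 6 of its libraries also enter that description.

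All 9 libraries came from the same line, and the labels name no genetic change or further treatment. Per the labels, day 0 cells were proliferating in DMEM with fetal bovine serum and were not yet confluent, and days 3 and 6 count from a switch of confluent cells to DMEM with horse serum, in which C2C12 cells fuse into myotubes. Each day had 3 libraries of total RNA treated to enrich circRNAs. Whether libraries of 1 day are separate cultures is not stated in the labels. The p-values therefore apply to these samples only, and the spread that differences between days are set against may be technical.

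Ccdc141 encodes a coiled-coil protein, also named CAMDI, that is known for binding the neuronal scaffold protein DISC1 and for its part in the migration of cortical neurons through myosin and the centrosome. In the genome it lies beside Ttn, the gene of the giant sarcomere protein titin. In circRNA formation, the donor site at the 3′ end of an exon is joined to an acceptor site at the 5′ end of an upstream exon, and the acceptor normally follows an intron that ends in the bases AG.

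Ccdc141 spans chr2:77009902-77170636 on the minus strand of GRCm38 in the GENCODE M21 annotation, so the 5′ end of the gene has the larger coordinate. Exons are numbered here along a GENCODE transcript of the gene with 24 exons. The table listed 29 circRNAs at the locus with 4234 reads in the 9 libraries together. Besides the 24 assigned to Ccdc141 (2695 reads) there were 5 listed as intergenic (1539 reads, 36.3%), of which the overhanging member is 1. All 5 began at the same position, 77173607, which is 2971 bp upstream of the gene's end in GENCODE. The RefSeq annotation of GRCm38.p6 places the end of Ccdc141 at 77173769, so the shared position lies 162 bp inside the RefSeq gene. The 5 circRNAs ended at the 3′ edges of exons 2, 5, 6, 7 and 8, with 136, 301, 682, 114 and 306 reads.

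**Figure D1:**
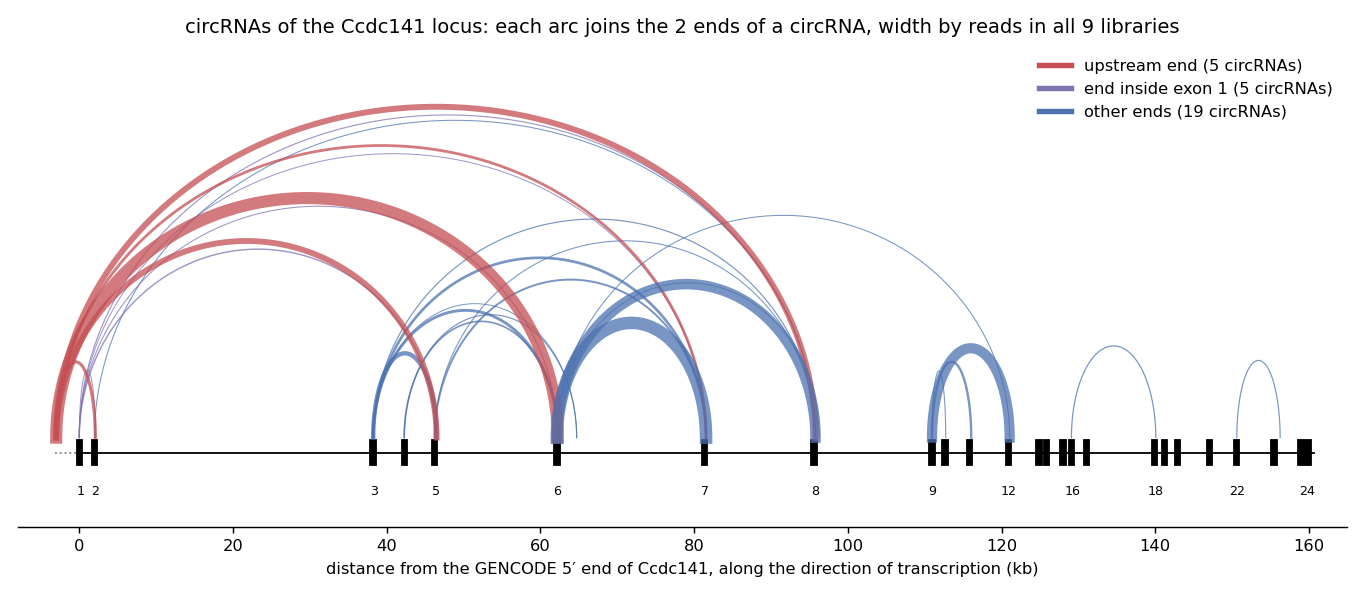
Each arc joins the 2 ends of 1 of the 29 circRNAs at the locus, with the distance from the GENCODE 5′ end of Ccdc141 in kb on the x axis and the line width set by the reads in all 9 libraries; the height of an arc only separates it from others. Black boxes are the 24 exons, drawn wider than to scale so that they can be seen, and the dotted line is the stretch that only RefSeq assigns to the gene. The heaviest arcs start at the upstream position, at exon 6 or at exon 9.

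The junctions of the 4 most read circRNAs assigned to Ccdc141 show how few exon edges make up most of the reads. In each line the last 25 bases of the donor exon are in lower case and the first 25 bases of the acceptor exon are in capitals, 5′ to 3′ on the gene's strand, read from the GENCODE transcript.
Exons 6-7, chr2:77089070-77108479: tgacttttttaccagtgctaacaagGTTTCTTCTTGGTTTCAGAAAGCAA
Exons 6-8, chr2:77074836-77108479: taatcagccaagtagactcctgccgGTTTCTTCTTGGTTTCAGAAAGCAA
Exons 9-12, chr2:77049579-77059681: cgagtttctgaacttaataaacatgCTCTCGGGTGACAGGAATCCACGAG
Exons 3-5, chr2:77124122-77132373: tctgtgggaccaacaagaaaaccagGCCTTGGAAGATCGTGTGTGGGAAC

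The first pair share their acceptor, the start of exon 6. The overhanging circRNA shares its donor with the circRNA of exons 6-8, so both have the same bases, taatcagccaagtagactcctgccg, before the junction and differ in what follows. The bases at its upstream end were not read here, because no genome sequence of that place was used.

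Exon 6 (chr2:77108363-77108479, 117 bp) is the exon with the most reads at the locus. It is shown whole because it serves at both ends of circRNAs, with the 10 bases that follow an acceptor junction and the 10 that precede a donor junction in capitals.
Exon 6: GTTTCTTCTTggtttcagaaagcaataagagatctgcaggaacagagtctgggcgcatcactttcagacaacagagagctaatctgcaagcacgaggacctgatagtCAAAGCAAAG

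As an acceptor it began 4 circRNAs with 1305 reads, and as a donor it ended 4 others with 863 reads. These 8 circRNAs held 2168 of the locus reads (51.2%). At day 3 the share was 53.1%, 53.2% and 52.5% in replicates 1, 2 and 3, and at day 6 it was 53.8%, 48.5% and 48.5%. At day 0 it was 53.8%, 0% and 50.9%, where the value of 0% rests on 7 reads. In 8 of the 9 libraries the share thus lay between 48.5% and 53.8%.

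Across the table as a whole, the totals were 208787 to 443955 back-splice reads per library. The smallest count above 0 was 2, so a single read appears as 0. The day labels were set beside marker genes read as circRNA hosts. Of the differentiated muscle markers 12 of 15 had reads, and their summed level was 357 to 619 CPM at day 0, 10532 to 12004 at day 3 and 12503 to 16280 at day 6, while Myh8, Actn2 and Myog had none. Most of the sum at days 3 and 6 came from Ttn, Ryr1 and Dysf. Their means were 7537, 2401 and 947 CPM at day 3 and 9202, 3668 and 1390 CPM at day 6. Tnnt1 rose from a mean of 3.80 CPM at day 0 to 343 CPM at day 6. Ldb3 (means 28.0, 43.0 and 0 CPM at days 0, 3 and 6) and Des (52.1, 49.6 and 22.8 CPM) were lower at day 6 than at day 0. The other muscle markers with reads had means of at most 73.6 CPM on any day. The 7 proliferation markers summed to 7596 to 9439 CPM at day 0, 1806 to 1998 at day 3 and 646 to 1125 at day 6. Of the myoblast markers 4 of 6 had reads, at 259 to 368, 395 to 597 and 373 to 607 CPM, and Myod1 and Myf5 had none. Among markers of other cell types, Pecam1, Cdh5, Ptprc and Csf1r had no reads, and only Pparg (94.9 to 422 CPM over all libraries), Runx2 (235 to 601), and genes of the neuron and cardiomyocyte lists (at most 64.9 and 57.0 in sum) were read. CPM are reads per 1000000 of the library's TMM-adjusted total. A lower level cannot be told apart from fewer cells that make the RNA.

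The sum over the Ccdc141 circRNAs, scaled among host genes, was 98.4, 27.6 and 399 CPM at day 0, 966, 1591 and 1091 CPM at day 3, and 1740, 1310 and 1812 CPM at day 6. Every day 3 and day 6 library lay above all day 0 libraries, and replicate 3 of day 0 lay far above its group. The means were 175 ± 197, 1216 ± 331 and 1621 ± 271 CPM (SD, n = 3 each). The log2 fold changes were 2.80 ± 0.44 (SE) for day 3 against day 0 and 3.22 ± 0.44 for day 6 against day 0, comparisons that share the day 0 libraries. Without replicate 3 of day 0 they were 4.23 and 4.65. That library had the lowest sum of muscle markers at day 0 (357 CPM). Its Ttn level, 75.9 CPM, was the highest of the day 0 libraries, against 35.8 and 0. Of all tested hosts 3.05% were called higher at day 3 and 3.85% at day 6, and 10.4% and 11% had groups that did not overlap in that direction. By mean level Ccdc141 ranked 199 of 6943 hosts.

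Between day 3 and day 6 the Ccdc141 sum did not pass the test. The log2 fold change was 0.42 ± 0.40 (edgeR quasi-likelihood test, adjusted p = 1), and the groups overlapped. Of all tested hosts 0.0726% were called in this comparison. Adding the 5 upstream circRNAs to the sum gave 2.59, 2.84 and 0.25 for the 3 comparisons, in an alternative chosen after seeing the data.

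The overhanging circRNA had no reads in any day 0 library. It had 64, 42 and 60 reads at day 3 and 28, 40 and 72 reads at day 6, which are 205, 147 and 176 CPM and 126, 162 and 170 CPM. The groups of days 3 and 6 thus lay wholly above day 0 and overlapped each other. Means were 176 ± 29.1 and 153 ± 23.8 CPM (SD, n = 3). Against a floor of 3 reads per library at day 0, it was at least 16.1-fold higher at day 3 and at least 13.9-fold higher at day 6. Here and below, such bounds assume that a listed 0 means fewer than 3 reads, since the filters behind the counts are not given. Day 6 differed from day 3 by a log2 fold change of -0.20 ± 0.98 (edgeR quasi-likelihood test, adjusted p = 1).

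The circRNA of exons 6-7 was the most read of the gene, with 708 reads. It had 0, 0 and 37 reads at day 0, 74, 129 and 96 at day 3, and 142, 60 and 170 at day 6. All its day 0 reads came from replicate 3, and each library of days 3 and 6 lay above that one in CPM (147 against 238 or more). Means were 49.1 ± 85.0, 324 ± 113 and 428 ± 198 CPM, and log2 fold changes against day 0 were 2.73 ± 0.78 and 3.14 ± 0.79. Without replicate 3 of day 0 the circRNA was at least 31.4-fold higher at day 3. It was called at day 6 but not at day 3. The call at day 6 was lost with DESeq2, with a minimum count of 10 and in a fit of only the 2 groups, and at day 3 it was called in 9 of 15 alternatives.

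The circRNA of exons 6-8 followed with 586 reads. Its counts were 0, 0 and 8 at day 0, 55, 109 and 93 at day 3, and 54, 68 and 199 at day 6. Day 0 reads were again in replicate 3 alone and the later groups did not overlap day 0. Means were 10.6 ± 18.4, 277 ± 103 and 330 ± 123 CPM, with log2 fold changes of 4.71 ± 0.87 and 4.97 ± 0.87. Without replicate 3 of day 0 it was at least 26.9-fold higher at day 3.

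The circRNA of exons 9-12 (568 reads) was the most evenly listed, with reads in 8 libraries. Its counts were 33, 0 and 12 at day 0, 80, 55 and 43 at day 3, and 50, 70 and 225 at day 6. The later groups lay above day 0 in CPM, and replicate 3 of day 6 was the highest of all (533 CPM). Means were 50.3 ± 51.6, 192 ± 65.4 and 347 ± 163 CPM, with log2 fold changes of 1.91 ± 0.76 and 2.77 ± 0.78. The second value was called, but not without replicate 3 of day 6 (2.29), without replicate 2 of day 0 (2.20), with no filter or with a minimum count of 10, and the first was called only without replicate 1 of day 0 (2.98).

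The circRNA of exons 3-5 (212 reads) resembled the overhanging one in having no day 0 reads. It had 34, 39 and 31 reads at day 3 and 40, 23 and 45 at day 6, or 112 ± 23.1 and 127 ± 46.5 CPM. The 3 libraries of each later day were thus all above the floor. It was at least 10.2-fold and at least 11.5-fold higher than the day 0 floor.

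A further 4 circRNAs of the gene with both ends at exon edges passed the filter on low counts and were read less evenly. Exons 3-6 (121 reads) had 0, 0 and 0 reads at day 0, 9, 26 and 32 at day 3, and 0, 23 and 31 at day 6. Exons 3-7 (110 reads) had 0, 7 and 10, then 0, 18 and 27, then 22, 8 and 18. Exons 9-11 (90 reads) had 0, 0 and 13, then 19, 10 and 10, then 0, 16 and 22. Each of these 3 had a library at 0 at day 3 or day 6, so their groups overlapped day 0 on at least 1 of these days. Exons 4-6 (49 reads) had 0, 0 and 0 reads at day 0, 15, 11 and 0 at day 3, and 6, 0 and 17 at day 6, with a library at 0 on both later days.

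Over the members, 10 of 25 passed the filter, and a member could pass through the days where it is high alone. Of these, 3 were called higher at day 3 against day 0 (overhanging, exons 6-8 and exons 3-5), beside 1.31% of all tested circRNAs called higher. At day 6 the count was 5, with exons 6-7 and 9-12 added, beside 1.47%. In a fit of only the 2 groups compared, none of the members was called on either day. The share of all circRNAs called in that fit is not given here. Groups that did not overlap, with the later day higher, were found for 6 members at day 3 (9.65% of all tested circRNAs) and 5 at day 6 (8.62%). These counts restate the choice of the locus. At day 6 against day 3, 0 of 10 were called by edgeR, 0 by DESeq2 and 0 at an unadjusted p under 0.05, beside 0.0613% of all tested circRNAs called in either direction. The fitted log2 values ran from -0.36 to 0.89, with 6 above 0 and 4 below, and no member had all day 6 libraries above all day 3 libraries (3.77% of all tested circRNAs).

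**Figure D2:**
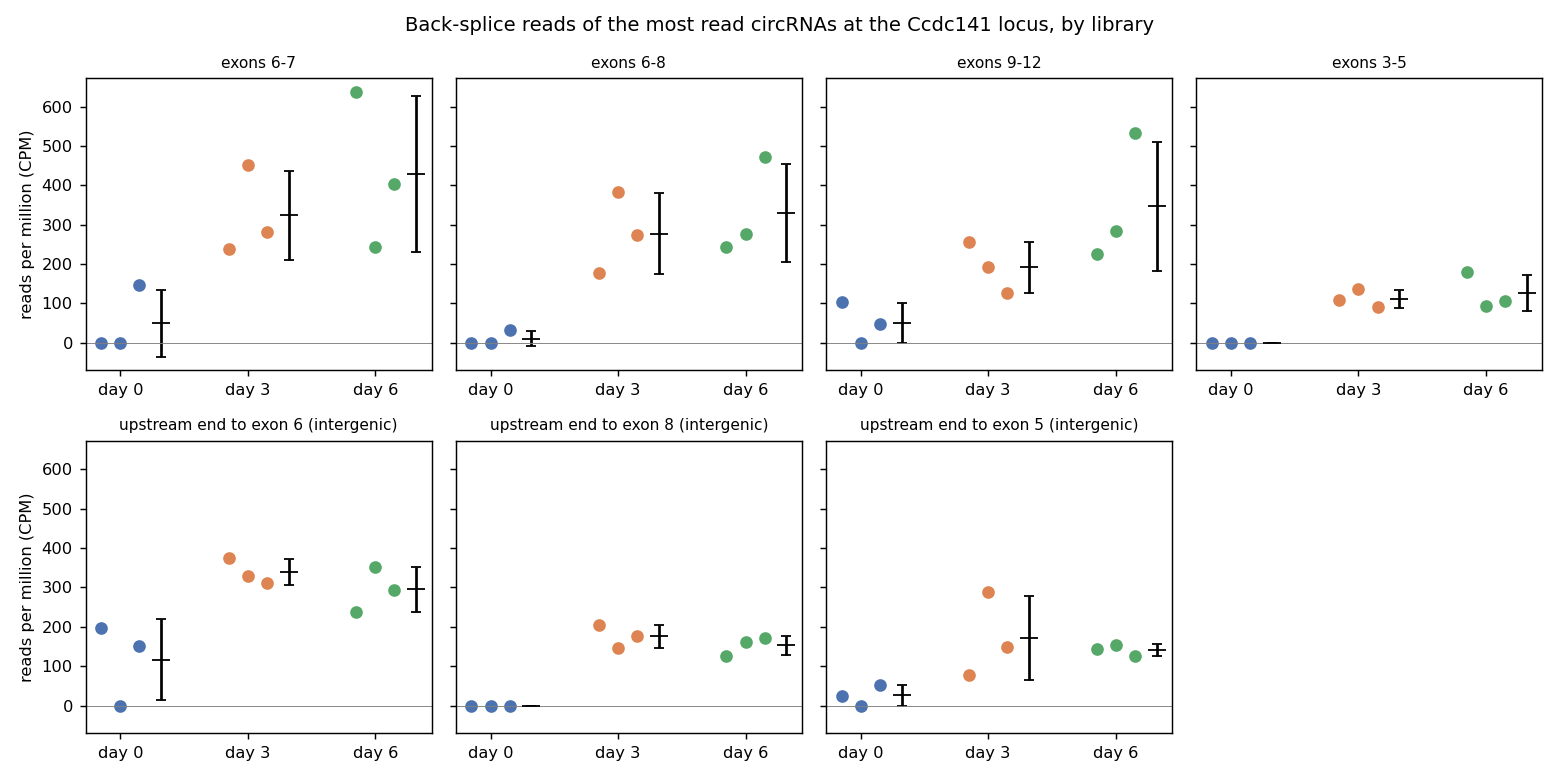
Back-splice reads in CPM (y axis) of the 7 most read circRNAs at the locus by day (x axis), with 1 point per library and, to its right, the mean (dash) and SD (bar) of 3 libraries. Those marked intergenic start at the shared upstream position. The overhanging circRNA (upstream end to exon 8) and that of exons 3-5 are at 0 in all day 0 libraries, while the upstream circRNA that ends at exon 6 reaches 197 CPM in replicate 1 of day 0.

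The overhanging circRNA was 1 of 5 with the same upstream end, and 3 of the other 4, those that end at exons 2, 5 and 6, were read at day 0 as well. The one that ends at exon 6 was the most read of the 5. It had 63, 0 and 38 reads at day 0, 117, 94 and 106 at day 3, and 53, 87 and 124 at day 6. The later groups did not overlap day 0 in CPM (197, 0 and 151 against 238 or more). Its means were 116 ± 103, 339 ± 33.4 and 295 ± 57.5 CPM, with log2 fold changes of 1.54 ± 0.67 and 1.34 ± 0.67.

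The upstream circRNA that ends at exon 5 had 8, 0 and 13 reads at day 0, 24, 82 and 51 at day 3, and 32, 38 and 53 at day 6. The one that ends at exon 7 had no day 0 reads, 24, 3 and 19 at day 3, and 0, 22 and 46 at day 6. The one that ends at exon 2 had 13, 0 and 7, then 3, 20 and 17, then 22, 0 and 54 reads. The groups of the exon 5 circRNA did not overlap day 0, while the exon 2 circRNA overlapped it on both days. None of these 4 was called by edgeR in any of the 3 comparisons. Of all tested circRNAs, edgeR called 1.31% higher at day 3 and 1.47% higher at day 6 against day 0. At day 6 against day 3 it called 0.0613% in either direction. Of the 4, 3 at day 3 and 2 at day 6 lay wholly above day 0, beside 9.65% and 8.62% of all tested circRNAs. At an unadjusted p under 0.05 there were 3, 2 and 0 of them, beside 775, 949 and 354 of the 8153 tested circRNAs. DESeq2 called 0, 1 and 0 of them, beside 272, 466 and 20 of all circRNAs. The difference between these circRNAs and the overhanging one was not tested.

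The share of locus reads that start at the upstream position was 43.9% (Wilson 95% interval 39.7 to 48.1), 34.7% (31.3 to 38.3) and 40.6% (36.8 to 44.5) in the day 3 libraries. At day 6 it was 27.3% (23.6 to 31.4), 38.1% (33.9 to 42.5) and 31.3% (28.6 to 34.1). Day 0 gave 71.8% (63.0 to 79.2, 84 of 117 reads), 0 of 7 reads and 35.6% (28.6 to 43.2, 58 of 163 reads). The intervals treat each read as independent and do not cover the spread between libraries. Amplified reads without molecular identifiers are not independent molecules, so the intervals are likely too narrow for counting error as well. The groups of days 3 and 6 overlapped. Their means of 39.7 ± 4.63% and 32.2 ± 5.44% (SD, n = 3) differed by -7.50 percentage points, with an exact two-sided permutation p of 0.2 (Benjamini-Hochberg 0.333 over 5 comparisons), where 0.1 is the smallest p that 3 against 3 allows. Replicate 1 of day 0 was the highest of all libraries in this share, with 84 reads from the upstream position and 33 from exons 9-12 and none from elsewhere at the locus.

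**Figure D3:**
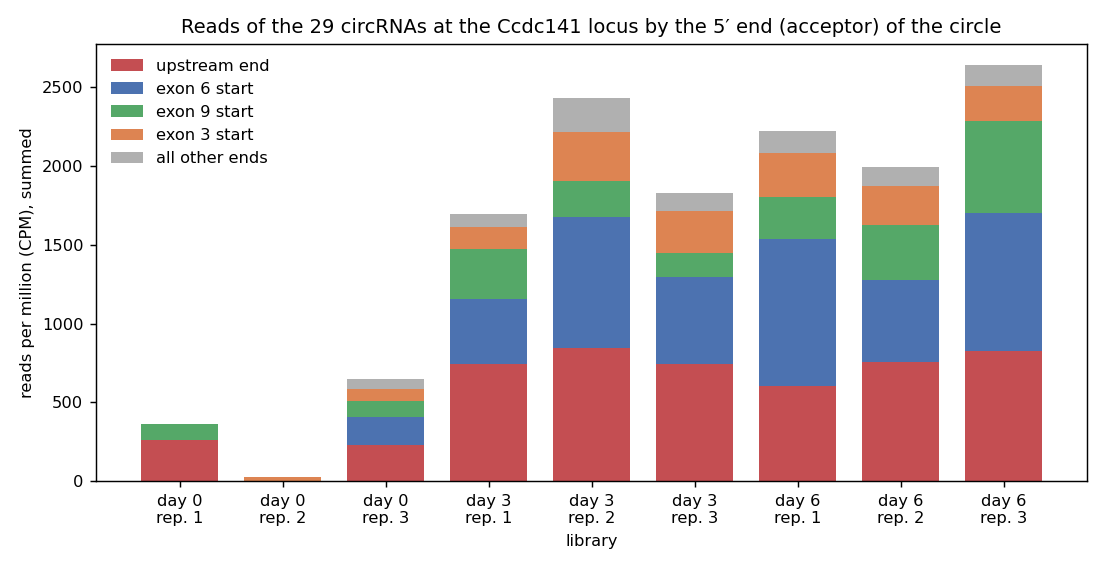
Summed CPM (y axis, stacked bars from 0) of the 29 circRNAs at the locus in each of the 9 libraries (x axis), split by the position at which the circRNA begins. The upstream position is the lowest segment. It makes up 27.3% to 43.9% of each bar at days 3 and 6, and replicate 2 of day 0 holds 7 reads in all.

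Most remaining reads started at a small number of exons. Those that begin at exon 6 had 1305 reads (30.8% of the locus), at exon 9 668 reads (15.8%) and at exon 3 464 reads. The exon 9 group, with donors at exons 10, 11 and 12, was 103, 0 and 99.5 CPM at day 0, 318, 228 and 155 CPM at day 3, and 270, 349 and 585 CPM at day 6. The later groups lay above day 0 and overlapped each other. The exon 3 group was 0, 27.0 and 75.6 CPM, then 138, 309 and 264 CPM, then 278, 247 and 223 CPM, and it also lay wholly above day 0. Downstream of exon 12 there were only the circRNAs of exons 16-18 (20 reads, replicate 2 of day 3) and 22-23 (17 reads, replicate 2 of day 6).

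A further 5 members began inside exon 1, at 77170607, a position that is no annotated exon edge. They ended at exons 2, 5, 6, 7 and 8, the same donors as the upstream circRNAs, and had 8, 33, 11, 6 and 15 reads, 73 in all and none at day 0. The one that ends at exon 5 passed the filter, with 0, 11 and 0 reads at day 3 and 0, 12 and 10 at day 6, and the other 4 were listed in 1 library each. In CPM their sum was 35.3, 91.1 and 0 at day 3 and 0, 48.7 and 56.8 at day 6, so a library at 0 occurred on each day. The 30 bases around this start are shown from the RefSeq promoter table of GRCm38.p6, with the 2 bases before the start in capitals.
Start inside exon 1, chr2:77170598-77170627: ccttttggccgggcaatcAGtgtgaacaga

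Those 2 bases are AG on the gene's strand. Only the motif AG, at this distance from the gene's start and on this strand, was looked for, and 8.87% of the 32851 promoter windows in the table (2913) held it there. The match is a description of the letters.

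Of the 25 members, 21 were of the exon type, 3 of the intron type and 1 intergenic, and 16 had both ends at exon edges. Both ends on annotated edges do not show which exons lie between, and the following lengths assume all of them. The circRNA of exons 6-7 would be 312 nt long, that of exons 6-8 485 nt, that of exons 9-12 634 nt and that of exons 3-5 555 nt. The lengths of exons 6-7, 3-5, 3-6 (672 nt), 3-7 (867 nt) and 4-6 (480 nt) are multiples of 3, and no stop codon was met in the frame of the host protein in 3 turns. Those of exons 6-8 and 9-12 are not, and the frame met a stop after 510 and 696 nt. These are properties of the annotated sequence, and with a length that is a multiple of 3 every turn repeats the same frame.

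The 3 intron-type members were rare. A pair shared the donor position 77105904, in the intron between exons 6 and 7, and began at exon 4 (16 reads, replicate 3 of day 0) or exon 3 (5 reads, replicate 2 of day 3). The third, chr2:77074352-77108479, began at exon 6 and had 2 reads in replicate 1 of day 6. Its end in the intron between exons 8 and 9 coincides with the 5′ end of the annotated microRNA model Gm44360 (chr2:77074271-77074352, minus strand).

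Single-library listing was common among the members, as in the table. In 1 library only were 13 of 25 members (52.0%, against 61.4% of all circRNAs), with 2 to 20 reads each and 137 in all. Another 4 were listed in 2 to 4 libraries and 8 in 5 to 8. Exons 5-7 had 65 reads in 4 libraries (5 and 38 at day 3, 15 and 7 at day 6) and did not pass the filter. At day 0, 7 members were listed, at day 3 15 and at day 6 20, an order that follows in part from the choice of the members. None carried a circBase identifier, which 2.72% of all circRNAs and 16.2% of those listed in at least 6 libraries had.

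The number of Ccdc141 circRNAs listed per library was 1, 1 and 7 at day 0, 8, 13 and 8 at day 3, and 11, 10 and 13 at day 6. The day 0 libraries were all below the later ones, and days 3 and 6 overlapped. How many other hosts separate in this way is not given here, and the order against day 0 follows in part from the choice of the locus. Means were 3.00 ± 3.46, 9.67 ± 2.89 and 11.3 ± 1.53 (SD, n = 3), and day 6 against day 3 gave an exact two-sided permutation p of 0.6 (Benjamini-Hochberg 0.75 over 5 comparisons). Ccdc141 had more of them than most hosts: 174 of 6943 hosts had at least 24 circRNAs, and the median was 3. Within the gene, the circRNA of exons 6-7 made up 24.9%, 28.5% and 25.9% of reads at day 3 and 39.6%, 19.7% and 22.2% at day 6. The day 6 values enclosed those of day 3, with means of 27.2 ± 10.8% and 26.4 ± 1.83% (exact permutation p = 1). The difference of the means, 0.71 percentage points, became -5.50 without replicate 1 of day 6 and -0.06 without replicate 1 of day 3.

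Of the 936 intergenic circRNAs in the table, 345 (36.9%) had 1 end at an exon edge on the same strand, and shared ends were counted among these alone. They had 311 free ends. Of the free ends 286 belonged to 1 circRNA, 25 to at least 2, and 1, that of Ccdc141, to at least 5. It also had the most reads, 1539, followed by a free end beside Layn (476) and one beside Hdac9 (195). By reads the 5 circRNAs ranked 3, 13, 14, 28 and 33 of the 936. Of the 345, 106 lay within a gene body of RefSeq on either strand, which need not be that of the gene at the exon edge. For these 5 it was Ccdc141. The filter kept 29 of the 345, and the overhanging circRNA was the only one of them called, at day 3 and at day 6 against day 0. Of all tested circRNAs 1.31% and 1.47% were called higher on these days. The overhanging circRNA was chosen with its rise known, so its call repeats the choice. It was not called in a fit of only the 2 groups compared.

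The host genes whose levels over the 9 libraries were most like those of Ccdc141 were Celf2 (Pearson r = 0.99 of log2(CPM + 1)), which encodes an RNA-binding splicing regulator, App (0.99), the amyloid precursor protein gene, Ctif (0.98), a translation initiation factor gene, the neighbouring Ttn (0.98), and Bbs9 (0.97), a gene of the ciliary BBSome complex. Each r is a description over libraries that fall into day 0 and later days, and that share their depth between genes. Celf2 was 83.5, 27.6 and 175 CPM at day 0, and Ccdc141 was 98.4, 27.6 and 399. In all 5 hosts replicate 3 was the highest of the day 0 libraries and replicate 2 the lowest. These hosts were picked for their r over the same libraries, so the shared order follows in part from that choice. At days 3 and 6 they ranged from 501 to 872 CPM (Celf2) up to 6930 to 10098 CPM (Ttn).

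**Figure D4:**
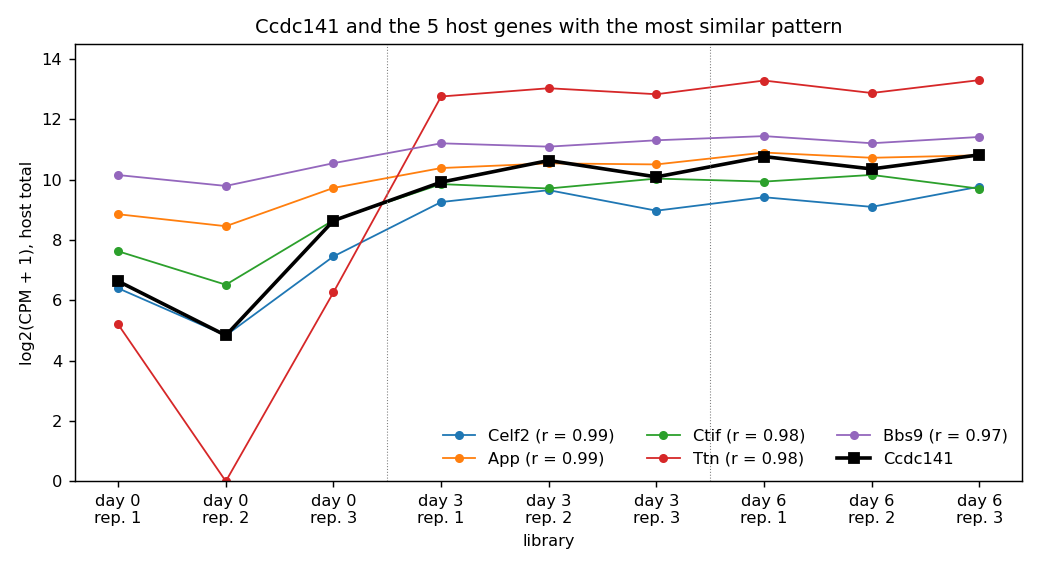
Host totals as log2(CPM + 1) (y axis) of Ccdc141 (black squares) and the 5 hosts with the most similar pattern in the 9 libraries (x axis), with Pearson r over the 9 libraries in the legend. Lines only join the values of a gene. Within day 0, replicate 3 is the highest and replicate 2 the lowest for each of the 6 genes, which follows in part from picking the 5 hosts by r.

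The single circRNAs most like the Ccdc141 sum came from Ubr3 (r = 0.98), Ctif (0.98), Frmpd1 (0.98), Fam126a (0.97) and Fkbp15 (0.97). For the overhanging circRNA the nearest hosts were Pinx1 (r = 0.997), Coq8a (0.99), Adgrl3 (0.98), Rad52 (0.98) and Slc6a8 (0.98), and the nearest circRNAs came from Ryr1, the gene of the muscle calcium release channel, Dysf, the gene of the membrane repair protein dysferlin, Hsf2bp, Ppfia1 and Dym. The Ryr1 circRNA had no day 0 reads and 247, 189 and 173 CPM at day 3 and 80.9, 174 and 166 CPM at day 6. It resembled the overhanging circRNA in being at 0 in all day 0 libraries and present in every later one. That resemblance follows in part from picking it by r.

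Other genes near Ccdc141 and genes of proteins that work with DISC1 and the centrosome were taken from lists, all on host totals. Among 24 genes annotated between 76 and 78 Mb of chromosome 2, other than Ccdc141, 5 had circRNA reads and 3 passed the filter. Ttn was higher than at day 0 by a log2 fold change of 7.64 ± 0.38 at day 3 and 7.93 ± 0.38 at day 6 (edgeR adjusted p = 1.9e-17 and 7.7e-18), and 0.29 ± 0.27 between them (adjusted p = 1). Plekha3 (0.44 ± 2.53 and 0.03 ± 2.48) and Sestd1 (36.7, 0 and 20.9 CPM on average at days 0, 3 and 6) were not called. Of all tested hosts, edgeR called 3.05% higher at day 3 and 3.85% higher at day 6 against day 0.

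Of 25 genes of the DISC1 and centrosome list, 17 had reads and 11 were tested. Against day 0, 0 were called at day 3 (1 at an unadjusted p under 0.05, 0 by DESeq2) and 1 at day 6 (2 unadjusted, 2 by DESeq2), and 0 at day 6 against day 3 (1 unadjusted, 0 by DESeq2). Over all 4135 tested hosts, 556, 722 and 246 had an unadjusted p under 0.05 in these comparisons, and DESeq2 called 286, 460 and 19. Against day 0, edgeR called 3.05% of tested hosts higher at day 3 and 3.85% higher at day 6. At day 6 against day 3 it called 0.0726% in either direction. The 1 called in the list was Trio, a guanine nucleotide exchange factor gene, with 1228, 1509 and 1526 CPM at day 0 and 2060, 2215 and 2989 CPM at day 6. Its groups did not overlap, as for 11% of all tested hosts in that direction. The log2 fold change of Trio was 0.77 ± 0.21 (edgeR adjusted p = 0.0169). The call was lost without replicate 1 of day 0 (0.66, edgeR adjusted p = 0.0825), without replicate 3 of day 6 (0.56, 0.202), in a fit of only the 2 groups (0.74, 0.0671) and without TMM scaling (0.64, 0.0517). Myh9, a non-muscle myosin heavy chain gene (0.12 ± 0.29 and -0.05 ± 0.29), Cdk5rap2 (-0.01 ± 0.35 and 0.48 ± 0.35) and Ndel1 (-0.07 ± 0.49 and -0.05 ± 0.49) were not called. The list's median log2 fold change was 0.12 at day 3 and -0.05 at day 6, beside -0.02 and -0.13 over all tested hosts. No other member of the list was called by edgeR.

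Hosts named Ccdc, a name given for a coiled-coil domain, numbered 40 without Ccdc141, and 15 were tested. None was called by edgeR in the 3 comparisons (2, 3 and 2 at an unadjusted p under 0.05, and 0, 1 and 0 by DESeq2). Over all 4135 tested hosts the counts were 556, 722 and 246 unadjusted and 286, 460 and 19 by DESeq2. By edgeR, 3.05% and 3.85% of tested hosts were called higher at days 3 and 6 against day 0. In either direction 0.0726% were called at day 6 against day 3. Medians were 0.23, -0.48 and -0.40, beside -0.02, -0.13 and -0.06 over all hosts. Ccdc6 was 0.23 ± 0.25 and 0.54 ± 0.25 against day 0, Ccdc91 1.44 ± 0.57 and 1.04 ± 0.56, and Ccdc57 0.13 and -0.37 on the log2 scale, the last within its SE. The difference between these hosts and Ccdc141 was not tested.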

How the data were processed

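Back-splice reads were measured in 9 libraries of C2C12 cells, 3 per day. The authors deposited 1 table of raw counts per circRNA and library, in whole reads. The submitters' processing notes name BWA and the build GRCm38.p4 (mm10); for the circRNA caller and its filters no name is given in the sources used here. Counts were tested with edgeR 4.0.16 (quasi-likelihood F-test, TMM, minimum count 5, minimum total 15, all 9 libraries, Benjamini-Hochberg threshold 0.05) for 8153 of 37751 circRNAs and for counts summed per host, 4135 of 6943; DESeq2 1.42.0 was an alternative. SE is the log2 fold change over the square root of F. circRNA and host CPM use separate TMM scales. The members, lists and tests were chosen with earlier results of these data known; all members are accounted for, with values by library for the overhanging circRNA and for the Ccdc141 circRNAs that passed the filter, and from each list those called and at most 3 others with the most reads were named. Replicate numbers were not treated as pairs in the main fits, and 0 count columns were left unused.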

Additional observations from a re-analysis of the deposited data

How the results depend on the processing

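Across the alternatives for TMM, DESeq2, filters and samples, the Ccdc141 sum kept its direction and its side of the threshold in all 17 alternatives of each comparison. Against day 0 this describes the fits and does not test the rise, because the locus was chosen with that rise known. The log2 fold change of the Ccdc141 sum without 1 replicate ran from 2.29 to 4.23 (day 3 against day 0), 2.70 to 4.65 (day 6 against day 0) and 0.27 to 0.66 (day 6 against day 3). With the replicate number as a block it was 3.17, 3.51 and 0.34, and the block changed no call of the Ccdc141 sum or the overhanging circRNA. The block added 1 call, exons 6-7 at day 3 (3.88). Correlations of deviations between libraries of different days ran from -0.029 to 0.022, over pairs with the same and with different numbers. With counts this sparse, values near 0 cannot exclude that libraries of the same number were paired. The overhanging circRNA was not called in a fit of only the 2 groups, where its bound was 15.9-fold at day 3 and 13.9-fold at day 6; without 1 replicate the bounds ran from 14.6 to 17.4 and from 12.9 to 15.4. In that fit 0 members were called on both days, against 3 and 5. With a minimum count of 10, 3 were called at day 6. The share of all circRNAs called in either of these fits is not given here. The cause of the lower counts was not tested. The share of exons 6-7 at day 6 minus day 3 turned from 0.71 to -0.06 without replicate 1 of day 3 and to -5.50 without replicate 1 of day 6, in a range up to 4.41 percentage points. Over all circRNAs tested at day 3 against day 0, DESeq2 moved the median from 0.12 to -0.01 (log2). Alternatives for single circRNAs, Trio and Ttn were added after seeing the data. Single reads are listed as 0, and the day 0 libraries held 117, 7 and 163 reads at the locus, which limits shares there.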
